A study of Mus musculus with 8 samples.

Results

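The 10 enzymes described here make serine and glycine and pass their carbon on to folate, and they were listed by name and function, with earlier results of these data known. They are *Phgdh*, *Psat1*, *Psph*, *Shmt1*, *Shmt2*, *Mthfd1*, *Mthfd2*, *Mthfd1l*, *Gldc* and *Tdh*, which are 10 of the 55385 genes in the deposited count table. All 10 were among the 17445 genes with enough counts to be tested. Polyadenylated RNA was sequenced from R1 mouse embryonic stem cells (mESCs) of wild-type genotype. Every group was grown feeder-free in N2B27 medium with LIF and the kinase inhibitors known as 2i, on Poly-L-Ornithine and Laminin. The cells of every group were infected with shRNA lentivirus on 2 consecutive days and kept under puromycin for 3 days. One group received shRNA1 (n = 3) and another shRNA2 (n = 3), both directed at *Eftud2*, a GTPase of the U5 snRNP in the spliceosome. The control group received a non-targeting hairpin (nt-shRNA, n = 2). All libraries come from a single mESC line and from selected cell populations rather than clones, and each knockdown (KD) group rests on 1 hairpin. The libraries are labelled as biological replicates, but the labels do not say whether these were separate infections, so the p-values measure the spread between these libraries.

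Levels are given as CPM, the read count of a gene relative to the library total after TMM scaling, which corrects for a few genes that take many reads. The libraries held between 19569525 and 29871048 counts on genes, and the members between 560 and 13374 counts in a library. *Eftud2* transcript was at 262.3 and 255.7 CPM in the nt-shRNA libraries, at 231.9, 229.2 and 225.3 CPM with shRNA1 and at 198.2, 202.1 and 234.7 CPM with shRNA2. Every KD library was below both control libraries, and the highest shRNA2 library was above all 3 shRNA1 libraries. The log2 fold change was -0.29 with shRNA2 (adjusted p = 0.00122) and -0.18 with shRNA1, which did not pass the test (adjusted p = 0.0514) and did so without shRNA2 replicate 2 (0.0415) or shRNA2 replicate 3 (0.0215). All adjusted p-values are from edgeR's quasi-likelihood test with Benjamini-Hochberg adjustment over all genes tested, and genes are said to rise or fall where they were under 0.05. None of the 10 embryonic stem cell markers listed, *Pou5f1*, *Sox2* and *Nanog* among them, was at 0, and their summed level was 7251 to 7400 CPM with nt-shRNA, 7428 to 7693 CPM with shRNA1 and 7661 to 8058 CPM with shRNA2. The chi-square per gene between the 2 nt-shRNA libraries was 12.02, and between other libraries of the same group it was 3.119 to 8.329. This statistic grows with depth, and the nt-shRNA libraries were the deepest. Whether depth accounts for their higher value was not tested. Both KD comparisons share these 2 libraries.

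Serine is made from the glycolytic intermediate 3-phosphoglycerate by PHGDH, PSAT1 and PSPH in turn. SHMT1 in the cytosol and SHMT2 in mitochondria split serine into glycine and a one-carbon unit that is carried by tetrahydrofolate. Inside mitochondria MTHFD2 oxidises that unit and MTHFD1L releases it as formate. MTHFD1 takes formate back into the folate pool of the cytosol, where purines, thymidylate and methionine draw on it. GLDC is the decarboxylase of the mitochondrial glycine cleavage system. TDH oxidises threonine, which mouse ESCs, unlike most cells, depend on as a source of glycine and one-carbon units. Several of these genes, among them *Phgdh*, *Psat1*, *Shmt2* and *Mthfd2*, are known targets of the amino acid stress factor ATF4.

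With shRNA2, 8 of the 10 enzymes fell and 2 rose, where 28.7% of all genes tested fell and 27.2% rose. With shRNA1, 6 fell, *Tdh* rose and 3 did not pass the test, against 17.1% of all genes that fell and 13.8% that rose. The median log2 fold change of the 10 enzymes was -0.56 with shRNA2 and -0.37 with shRNA1, and that of all genes tested was 0.00 and -0.01. By direction of the library values alone, 8 enzymes lay below and 2 above both nt-shRNA libraries in every shRNA2 library, and 36.0% and 35.4% of all genes did so. In the shRNA1 libraries 7 enzymes lay wholly below, *Tdh* lay wholly above and 2 overlapped the controls, against 30.2% and 26.6% of all genes. In these bulk libraries a lower transcript level per cell and fewer cells that express the gene cannot be told apart. Without nt-shRNA replicate 1 the number of enzymes that fell was 4 with shRNA1 and 6 with shRNA2, and the shRNA1 median was -0.24. When libraries were scaled by their totals alone, the median of all genes moved to 0.11 with shRNA1 and 0.09 with shRNA2, 2 enzymes rose with shRNA1, and the shRNA1 and shRNA2 medians of the enzymes were -0.25 and -0.47.

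**Figure D1:**
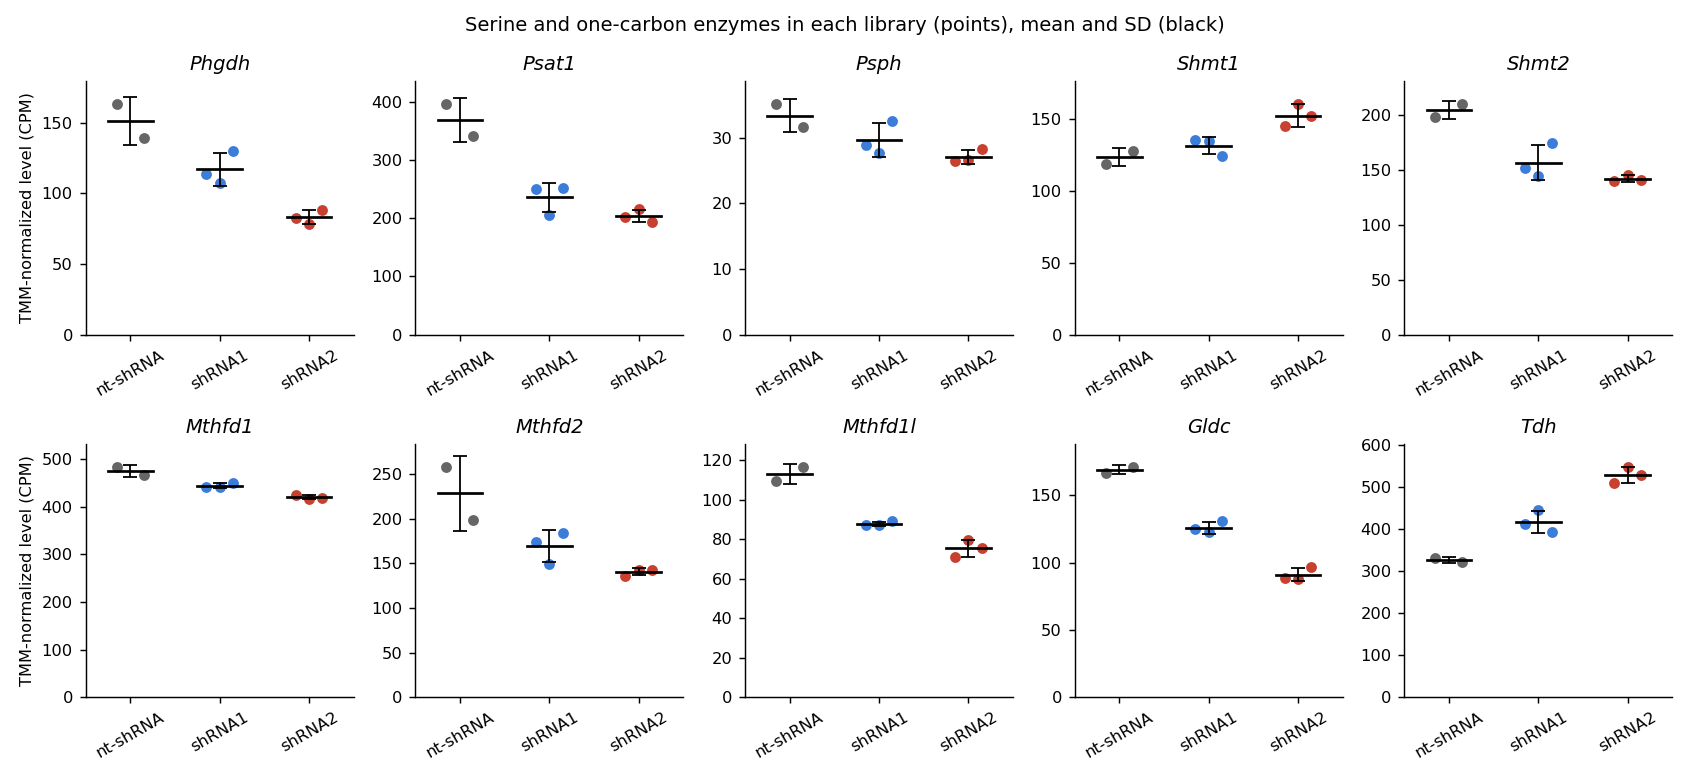
Level of each enzyme transcript (CPM after TMM scaling, vertical axes from 0) in each library of the nt-shRNA (grey), shRNA1 (blue) and shRNA2 (red) groups, with the mean and SD in black. The shRNA2 libraries lie below both controls for 8 enzymes and above them for *Shmt1* and *Tdh*.

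The promoters of the serine synthesis genes and of *Mthfd2*, which hold the most matches to one motif, are shown here beside that of *Shmt1*, which rose with shRNA2. They are the 250 bases before the RefSeq start site on GRCm38.p6, written 5′ to 3′ on the strand of the gene, and the capitals mark the letters CCAAT or their complement ATTGG. The windows are chr3:98339970-98340219 for *Phgdh*, chr19:15925060-15925309 for *Psat1*, chr5:129787254-129787503 for *Psph*, chr6:83317605-83317854 for *Mthfd2* and chr11:60811266-60811515 for *Shmt1*, all on the minus strand.
Phgdh: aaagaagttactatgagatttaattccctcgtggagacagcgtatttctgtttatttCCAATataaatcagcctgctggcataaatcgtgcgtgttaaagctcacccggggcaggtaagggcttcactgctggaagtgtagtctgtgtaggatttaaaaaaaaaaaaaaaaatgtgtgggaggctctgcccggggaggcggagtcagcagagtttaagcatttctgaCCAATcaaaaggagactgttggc
Psat1: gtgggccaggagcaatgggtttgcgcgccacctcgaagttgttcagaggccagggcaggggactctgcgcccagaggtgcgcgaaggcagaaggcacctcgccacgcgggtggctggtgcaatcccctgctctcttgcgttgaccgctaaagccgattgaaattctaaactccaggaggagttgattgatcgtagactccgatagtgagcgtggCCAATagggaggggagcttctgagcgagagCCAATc
Psph: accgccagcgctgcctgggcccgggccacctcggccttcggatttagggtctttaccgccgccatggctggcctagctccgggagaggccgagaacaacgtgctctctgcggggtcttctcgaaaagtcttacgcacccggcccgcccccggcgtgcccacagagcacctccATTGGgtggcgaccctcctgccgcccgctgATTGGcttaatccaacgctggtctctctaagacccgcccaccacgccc
Mthfd2: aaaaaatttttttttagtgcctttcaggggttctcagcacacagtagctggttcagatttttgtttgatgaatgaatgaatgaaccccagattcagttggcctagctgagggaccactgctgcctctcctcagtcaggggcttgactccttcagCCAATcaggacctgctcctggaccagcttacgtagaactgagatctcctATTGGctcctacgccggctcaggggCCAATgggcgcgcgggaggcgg
Shmt1: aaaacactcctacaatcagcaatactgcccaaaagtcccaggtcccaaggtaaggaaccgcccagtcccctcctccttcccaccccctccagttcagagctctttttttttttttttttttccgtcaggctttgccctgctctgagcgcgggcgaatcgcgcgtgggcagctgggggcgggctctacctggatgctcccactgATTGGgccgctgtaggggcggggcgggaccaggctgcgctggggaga

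RefSeq promoters were given for 9 of the 10 genes and not for *Tdh*. They come to 10 windows, since *Psat1* has a second start site, whose window (chr19:15924623-15924872) holds no match. The motif CCAAT, on either strand, was found in 7 of the 10 windows, each of another gene, and in 33.85% of all 32851 promoter windows of the same length. The matches in *Phgdh* start 193 and 23 bases before the start site, those in *Psat1* 36 and 6, those in *Psph* 78 and 48, and those in *Mthfd2* 96, 47 and 22. *Gldc*, *Mthfd1* and *Shmt1* have a single match each, at 66, 69 and 47 bases, and *Shmt2* and *Mthfd1l* have none. At least 2 matches were found in 4 of the 10 windows and in 10.09% of all windows. GGGCGG was found in 6 of the 10 windows and in 32.74% of all windows. TGATGNAA, letters of the composite element that ATF4 shares with C/EBP factors, and the E-box CACGTG had no match in these windows, and 3.45% and 6.02% of all windows held them. All motifs were read on both strands, and none of them contains another. CCAAT was thus present in genes that fell with shRNA2 (*Phgdh*, *Psat1*, *Psph*, *Mthfd2*, *Gldc* and *Mthfd1*) and in *Shmt1*, which rose.

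The serine synthesis genes *Phgdh* and *Psat1* fell with both hairpins, and *Psph* fell with shRNA2. *Phgdh* (ENSMUSG00000053398, chr3:98313170-98339990, 13 exon blocks) encodes the dehydrogenase of the first step. It was at 163.2 and 139.4 CPM with nt-shRNA, at 113.6, 107.6 and 130.2 CPM with shRNA1 and at 82.27, 78.47 and 88.26 CPM with shRNA2. The 3 groups of *Phgdh* libraries did not overlap, and the lower control library lay close to the highest shRNA1 library. The log2 fold change was -0.37 with shRNA1 (SE 0.08, adjusted p = 0.00192) and -0.87 with shRNA2 (SE 0.08, adjusted p = 4.89e-08), so that the level fell by 22.5% with shRNA1 and fell by 45.1% with shRNA2. Without nt-shRNA replicate 1 the shRNA1 value was -0.25 and no longer passed (adjusted p = 0.0878). A copy annotated as *Gm7901* matches 1595 of 1893 bases (84.26%) of the *Phgdh* transcript at 98% identity or more, and fragments that align to both places were not counted, so the absolute level of *Phgdh* is uncertain. *Gm7901* itself held 136 counts over all libraries against 22139 for *Phgdh*.

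*Psat1* (ENSMUSG00000024640, chr19:15904678-15947337, 12 exon blocks) encodes the phosphoserine aminotransferase of the second step. Its level was 395.6 and 341.3 CPM with nt-shRNA, 249.3, 205.9 and 250.8 CPM with shRNA1 and 201.1, 215.6 and 193.8 CPM with shRNA2. Each KD library was far below the lower control, and the lowest shRNA1 library lay among the shRNA2 libraries. *Psat1* had the lowest fold change of the 10 enzymes with shRNA1, -0.65 (SE 0.08, adjusted p = 9.12e-06), where the level fell by 36.1%. With shRNA2 the log2 fold change was -0.86 (SE 0.08, adjusted p = 5.37e-08), where it fell by 44.8%.

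*Psph* (ENSMUSG00000029446, chr5:129765558-129787449, 9 exon blocks) encodes the phosphatase that releases serine, and its fold changes were nearer to 0 than those of *Phgdh* and *Psat1*. Its levels were 35.09 and 31.57 CPM with nt-shRNA, 28.82, 27.64 and 32.58 CPM with shRNA1 and 26.37, 26.56 and 28.27 CPM with shRNA2. The shRNA1 libraries overlapped the controls and the shRNA2 libraries did not. With shRNA2 *Psph* fell by 0.30 on the log2 scale (SE 0.09, adjusted p = 0.00715). With shRNA1 the log2 fold change was -0.16 and did not pass (adjusted p = 0.168, 95% interval -0.35 to 0.02). Without nt-shRNA replicate 1 the shRNA2 value was -0.22 and did not pass (adjusted p = 0.115). *Psph* shares 452 exon bases (10.4% of its exon length) with *Cct6a* on the opposite strand, which held 101227 counts against 5727 for *Psph* and rose by 0.28 with shRNA2 (adjusted p = 0.000767). Fragments that lay wholly on the shared bases were left out of both genes.

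The serine hydroxymethyltransferases moved in opposite directions with shRNA2. *Shmt2* (ENSMUSG00000025403, chr10:127517123-127522444, 10 exon blocks), which encodes the mitochondrial enzyme, was at 197.9 and 209.5 CPM with nt-shRNA, at 151.2, 144.1 and 173.8 CPM with shRNA1 and at 139.2, 145.1 and 140.2 CPM with shRNA2. All KD libraries were below the controls, and the KD groups overlapped each other. *Shmt2* fell by 0.38 on the log2 scale with shRNA1 (SE 0.07, adjusted p = 0.000438) and by 0.53 with shRNA2 (SE 0.07, adjusted p = 4.01e-06). It shares 32 exon bases with *Ndufa4l2* on the other strand, which fell by 3.60 with shRNA2 (adjusted p = 2.21e-10) and held 3905 counts against 31705.

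*Shmt1* (ENSMUSG00000020534, chr11:60788104-60811718, 15 exon blocks), the cytosolic form, was at 119.2 and 128 CPM with nt-shRNA, at 135.5, 134.7 and 124.7 CPM with shRNA1 and at 145.3, 160.7 and 152.2 CPM with shRNA2. The shRNA1 libraries overlapped the controls, and the shRNA2 libraries lay above every other library. With shRNA2 *Shmt1* rose by 0.31 on the log2 scale (SE 0.07, adjusted p = 0.000587), a gain of 23.6%. With shRNA1 the value was 0.09 and did not pass (adjusted p = 0.316, 95% interval -0.05 to 0.23), and it passed at 0.20 when libraries were scaled by their totals alone (adjusted p = 0.0249). *Shmt1* shares 184 exon bases (4.74%) with *Smcr8* on the opposite strand, which held 12493 counts against 26089 and rose by 0.88 with shRNA2 (adjusted p = 1.85e-07). Here too, fragments wholly on the shared bases were left out of both genes.

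*Mthfd2* and *Mthfd1l* fell with both hairpins, and *Mthfd1* with shRNA2. *Mthfd2* (ENSMUSG00000005667, chr6:83305691-83325908, 10 exon blocks), the mitochondrial dehydrogenase and cyclohydrolase, was at 257.9 and 198.7 CPM with nt-shRNA, at 174.2, 149.1 and 183.6 CPM with shRNA1 and at 135.7, 142.8 and 142.7 CPM with shRNA2. The groups did not overlap, but the control libraries differed from each other by 29.8%, the widest control gap of the 10 enzymes. *Mthfd2* fell by 0.43 on the log2 scale with shRNA1 (SE 0.09, adjusted p = 0.00128) and by 0.70 with shRNA2 (SE 0.09, adjusted p = 2.63e-06). Without nt-shRNA replicate 1 the shRNA1 value was -0.23 and did not pass (adjusted p = 0.102). Its mitochondrial paralogue *Mthfd2l*, named after its values were seen, stood at 0.04 with shRNA1 (adjusted p = 0.886) and -0.08 with shRNA2 (adjusted p = 0.71), at 3.247 to 4.465 CPM in all libraries.

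*Mthfd1l* (ENSMUSG00000040675, chr10:3973118-4167081, 30 exon blocks), the mitochondrial formyltetrahydrofolate synthetase that releases formate, was at 109.4 and 116.7 CPM with nt-shRNA, at 87.37, 87.17 and 89.05 CPM with shRNA1 and at 71.01, 79.64 and 75.5 CPM with shRNA2. These libraries fell into non-overlapping groups with a small spread. *Mthfd1l* fell by 0.36 on the log2 scale with shRNA1 (SE 0.06, adjusted p = 0.000287) and by 0.58 with shRNA2 (SE 0.06, adjusted p = 3.56e-07).

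*Mthfd1* (ENSMUSG00000021048, chr12:76255298-76319803, 29 exon blocks), the trifunctional enzyme of the cytosol, was at 483.8 and 466 CPM with nt-shRNA, at 440.6, 440.9 and 449.6 CPM with shRNA1 and at 424.6, 416.3 and 418.7 CPM with shRNA2. Its groups did not overlap either, but they lay close together. With shRNA2 *Mthfd1* fell by 0.18 on the log2 scale (SE 0.06, adjusted p = 0.0114), and with shRNA1 the value of -0.10 did not pass (adjusted p = 0.198, 95% interval -0.22 to 0.02). Without nt-shRNA replicate 1 the shRNA2 value was -0.15 (adjusted p = 0.106), and with scaling by totals alone it was -0.09 (adjusted p = 0.17).

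The enzymes that break down glycine and threonine moved in opposite directions with both hairpins. *Gldc* (ENSMUSG00000024827, chr19:30098447-30175429, 25 exon blocks) was at 166.3 and 171 CPM with nt-shRNA, at 124.5, 122.3 and 130.7 CPM with shRNA1 and at 88.31, 87.89 and 96.43 CPM with shRNA2. The 3 groups were well apart, and the higher control was 1.028 times the lower. *Gldc* fell by 0.42 on the log2 scale with shRNA1 (SE 0.06, adjusted p = 4.46e-05) and by 0.89 with shRNA2 (SE 0.06, adjusted p = 1.21e-09), so that its level fell by 25.3% and by 46.1%.

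*Tdh* (ENSMUSG00000021953, chr14:63492347-63509092, 10 exon blocks) was at 331.7 and 320.8 CPM with nt-shRNA, at 411.2, 444.3 and 393.6 CPM with shRNA1 and at 509.7, 548.1 and 528.2 CPM with shRNA2. Every shRNA1 library was above the controls and every shRNA2 library was above all shRNA1 libraries. *Tdh* rose by 0.35 on the log2 scale with shRNA1 (SE 0.06, adjusted p = 0.000391) and by 0.70 with shRNA2 (SE 0.06, adjusted p = 4.4e-08), a gain of 27.6% and 62.1%. It shares 66 exon bases with the antisense gene *Gm17232*, which held 646 counts against 81834 and rose by 0.71 with shRNA1 (adjusted p = 0.0239) and by 1.71 with shRNA2 (adjusted p = 1.81e-06). Fragments wholly on those bases were left out of both genes. *Gcat*, which encodes the ligase that takes the product of TDH on to glycine, fell with both hairpins, by 0.59 and by 0.89 on the log2 scale (adjusted p = 0.00444 and 4.67e-05). Its level was 12.67 and 12.09 CPM with nt-shRNA, 8.434, 7.552 and 8.663 CPM with shRNA1 and 5.115, 6.764 and 8.124 CPM with shRNA2, so that *Tdh* and *Gcat*, neighbours in threonine breakdown, changed in opposite directions.

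Markers of cell states were read in the same libraries, where, as above, 27.2% of all genes rose and 28.7% fell with shRNA2, and 13.8% rose and 17.1% fell with shRNA1. Of the 10 embryonic stem cell markers, 7 rose and 2 fell with shRNA2, and 5 rose and 2 fell with shRNA1. The 6 transcripts listed for 2-cell-like cells summed to 9.93 to 12.11 CPM with nt-shRNA, 46.38 to 65.7 CPM with shRNA1 and 35.58 to 46.03 CPM with shRNA2, and all 5 tested rose with each hairpin. The 12 germ layer and extraembryonic markers summed to 109.8 to 112.2 CPM, 88.13 to 100 CPM and 66.56 to 70.27 CPM in the same order, with 3 of 10 tested lower and 1 higher with shRNA2, near the shares of all genes for the lower ones. The 5 formative or primed markers summed to 82.36 to 92.82 CPM, 100 to 110 CPM and 119.7 to 126.9 CPM, a sum carried by *Dnmt3b*, the 1 marker of 4 tested that rose with shRNA2 (mean 38.57 CPM with nt-shRNA and 91.95 CPM with shRNA2), while *Otx2*, named like *Dnmt3b* after its values were seen, fell by 0.64 (adjusted p = 0.000264). The 6 fibroblast or feeder markers summed to 21.22 to 23.1 CPM, 22.33 to 25.03 CPM and 15.42 to 19.32 CPM, with 1 of 4 tested higher and 1 lower with shRNA2. No listed marker was at 0 in all libraries. Their part in the values of the 10 enzymes was not tested.

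**Figure D2:**
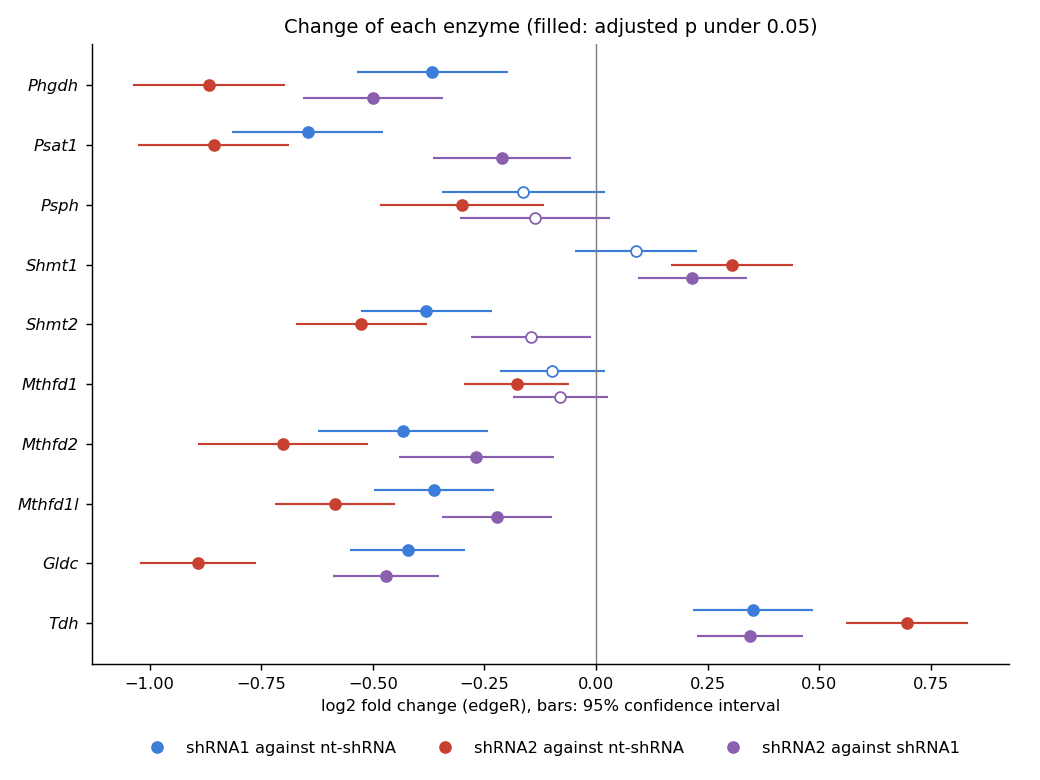
Log2 fold change of each enzyme transcript from edgeR (horizontal axis), with bars for the 95% confidence interval, for shRNA1 against nt-shRNA (blue), shRNA2 against nt-shRNA (red) and shRNA2 against shRNA1 (purple), filled where the adjusted p was under 0.05. With shRNA2 every point is filled, and *Gldc* is lowest at -0.89 and *Tdh* highest at 0.70.

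The direct comparison of the hairpins asks which enzymes differed between the KD groups. The control libraries enter it through the filter and the shared estimate of the spread and not through the difference itself. *Eftud2* stood at -0.11 between the hairpins and did not pass (adjusted p = 0.164). It passed without shRNA2 replicate 3 (-0.19, adjusted p = 0.0127). With shRNA2, 5 enzymes were lower than with shRNA1, 2 were higher and 3 did not pass, where 18.7% of all genes were lower and 16.9% higher. The libraries of the 2 KD groups lay wholly apart for 7 enzymes, with *Phgdh*, *Mthfd1*, *Mthfd2*, *Mthfd1l* and *Gldc* lower and *Shmt1* and *Tdh* higher with shRNA2, against 24.1% and 23.6% of all genes. The gap was -0.50 for *Phgdh* (SE 0.07, adjusted p = 6.28e-05), -0.47 for *Gldc* (SE 0.06, adjusted p = 7.97e-06) and 0.34 for *Tdh* (SE 0.06, adjusted p = 0.000154). It was 0.22 for *Shmt1* (SE 0.06, adjusted p = 0.00745), -0.22 for *Mthfd1l* (SE 0.06, adjusted p = 0.00692), -0.27 for *Mthfd2* (SE 0.08, adjusted p = 0.0166) and -0.21 for *Psat1* (SE 0.07, adjusted p = 0.0329).

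*Shmt2*, *Psph* and *Mthfd1* did not pass between the hairpins, with values of -0.15 (adjusted p = 0.0848, 95% interval -0.28 to -0.01), -0.14 (adjusted p = 0.198, 95% interval -0.31 to 0.03) and -0.08 (adjusted p = 0.232, 95% interval -0.19 to 0.03). The number of enzymes lower with shRNA2 was 2 without shRNA2 replicate 1, and 3 without shRNA1 replicate 1 or without shRNA1 replicate 3. *Psat1* lost its call without any of these or shRNA2 replicate 3 (adjusted p from 0.0948 to 0.139), *Mthfd2* without any of the first 3 (0.0631 to 0.0923) and *Mthfd1l* without shRNA2 replicate 1 (0.0541). *Phgdh*, *Gldc*, *Shmt1* and *Tdh* kept theirs in every leave-out fit.

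For levels between genes, CPM was divided by the length of all annotated exons of a gene, so that genes with many alternative exons read low. *Phgdh* is left out of the order, since fragments shared with its copy were not counted. On this scale *Tdh* was the most abundant of the other 9 transcripts in every group, at 124.8 ± 2.9 CPM per kilobase with nt-shRNA (SD, n = 2), 159.2 ± 9.8 with shRNA1 (SD, n = 3) and 202.2 ± 7.3 with shRNA2 (SD, n = 3). *Mthfd1* came next in every group, at 106.9 ± 2.8, 99.89 ± 1.2 and 94.52 ± 0.96 CPM per kilobase in the same order. In the nt-shRNA group they were followed by *Psat1* at 86.61 ± 9.0, *Shmt2* at 65.51 ± 2.6 and *Mthfd2* at 65.46 ± 12 CPM per kilobase. *Shmt2* and *Mthfd2* lay within their spread of each other. The counted fragments of *Phgdh* came to 60.87 ± 6.8 CPM per kilobase with nt-shRNA, 47.12 ± 4.7 with shRNA1 and 33.39 ± 2.0 with shRNA2.

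*Shmt1* at 31.83 ± 1.6, *Gldc* at 27.68 ± 0.55, *Mthfd1l* at 25.49 ± 1.2 and *Psph* at 7.698 ± 0.58 CPM per kilobase made up the lower end with nt-shRNA. With shRNA2 *Shmt1* stood at 39.34 ± 2.0 CPM per kilobase, within its spread of *Mthfd2* at 40.26 ± 1.2. *Gldc* at 14.92 ± 0.79 CPM per kilobase then lay below *Mthfd1l* at 17 ± 0.97, the reverse of their order in the controls. This reversal depends on the exon lengths used, 6091 bases for *Gldc* and 4435 for *Mthfd1l*. In CPM *Gldc* was above *Mthfd1l* in both groups, with means of 168.6 and 113.1 with nt-shRNA and 90.88 and 75.38 with shRNA2.

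**Figure D3:**
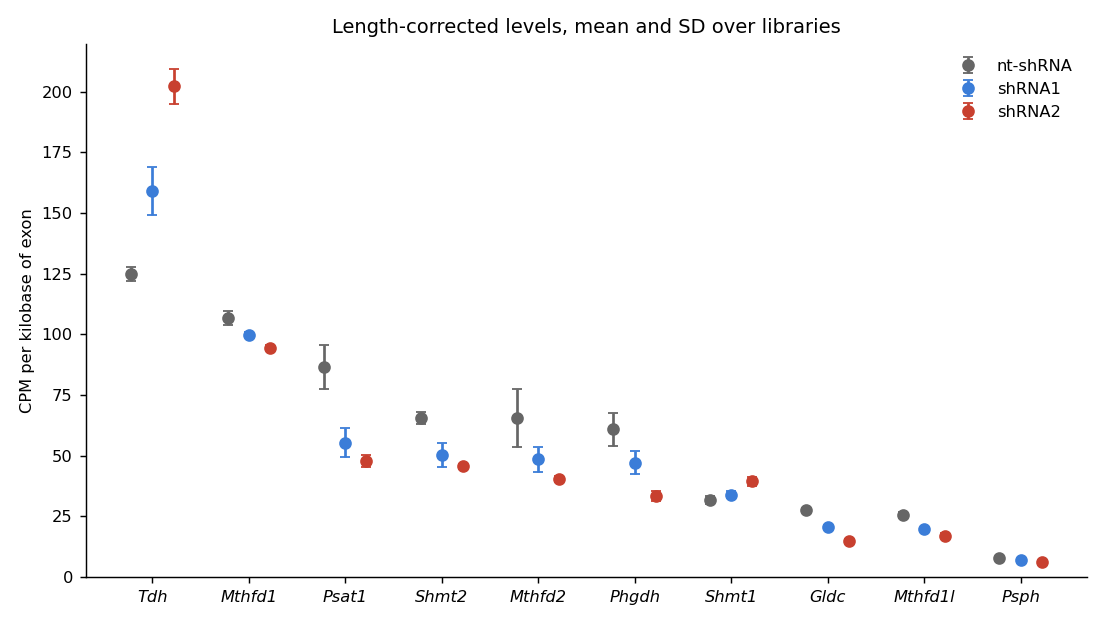
Level of each enzyme transcript in CPM per kilobase of exon (vertical axis from 0), with genes ordered by their nt-shRNA mean and points and bars for the mean and SD over 2 nt-shRNA (grey), 3 shRNA1 (blue) and 3 shRNA2 (red) libraries. *Tdh* leads at 124.8 CPM per kilobase in the controls and 202.2 with shRNA2, and *Psph* is lowest in all groups. The *Phgdh* points leave out fragments shared with its copy.

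The mitochondrial and cytosolic forms were also compared within each library, as ratios of length-corrected counts that need no scaling between libraries. These ratios were chosen after the values had been seen. The ratio of *Shmt2* to *Shmt1* was 2.073 and 2.044 with nt-shRNA, 1.394, 1.337 and 1.741 with shRNA1 and 1.196, 1.128 and 1.15 with shRNA2. It was lower in every KD library than in the controls, with group means of 2.059 ± 0.021, 1.491 ± 0.22 and 1.158 ± 0.035 (SD). A two-sided exact permutation test of the mean gave p = 0.2 for shRNA1 and p = 0.1 for shRNA2, and 0.1 is the smallest p that 3 libraries against 2 can give.

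The ratio of *Mthfd2* to *Mthfd1* was 0.6789 and 0.5431 with nt-shRNA, 0.5036, 0.4308 and 0.52 with shRNA1 and 0.407, 0.437 and 0.4342 with shRNA2. That of *Mthfd1l* to *Mthfd1* was 0.2264 and 0.2509, then 0.1986, 0.198 and 0.1984, then 0.1675, 0.1916 and 0.1806 in the same order. Neither ratio overlapped between controls and KD libraries, and each comparison gave the smallest possible exact permutation p of 0.1. In these 3 pairs the mitochondrial form was lower against the cytosolic one in every KD library. The *Mthfd2* and *Mthfd1l* ratios share *Mthfd1* and are not independent of each other. The mitochondrial *Mthfd2l*, at a low level, was not among these pairs. It stood at 0.04 with shRNA1 (adjusted p = 0.886) and -0.08 with shRNA2 (adjusted p = 0.71), where *Mthfd1* stood at -0.10 and -0.18. The exact permutation test used here could not pass 0.05 with 3 libraries against 2. The formyltetrahydrofolate dehydrogenases did not share the pattern of the 3 pairs. The mitochondrial 10-formyltetrahydrofolate dehydrogenase *Aldh1l2*, named after its values were seen, was at 3.036 and 2.299 CPM with nt-shRNA and at 2.372 to 2.886 CPM with shRNA2 (log2 fold change 0.01, adjusted p = 0.955), and its cytosolic counterpart *Aldh1l1* fell by 1.48 on the log2 scale (adjusted p = 8.8e-10).

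**Figure D4:**
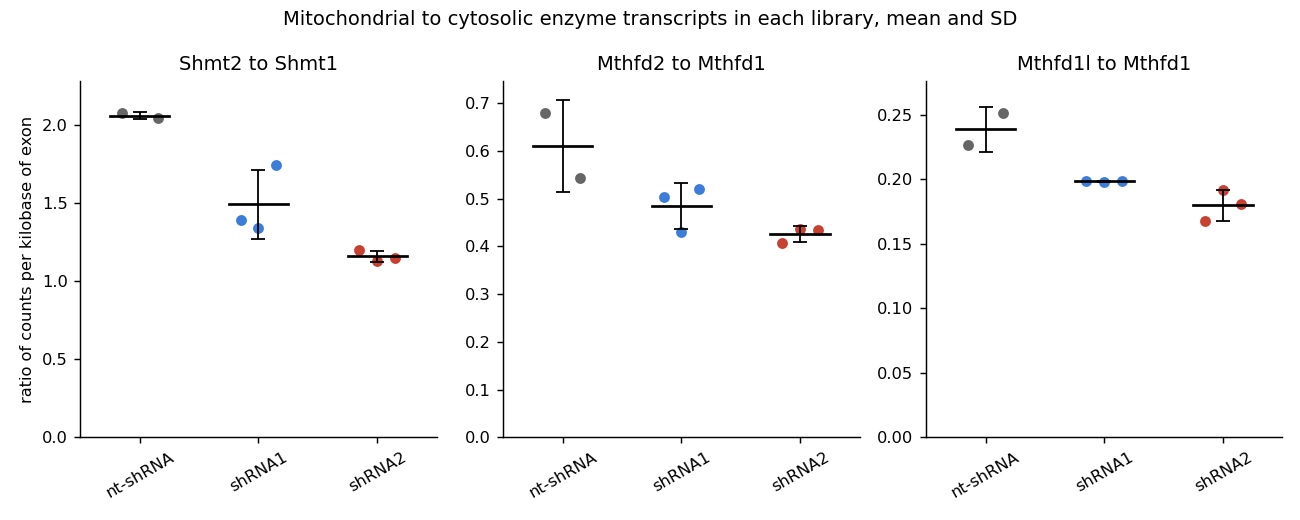
Ratio of length-corrected counts of *Shmt2* to *Shmt1*, *Mthfd2* to *Mthfd1* and *Mthfd1l* to *Mthfd1* (vertical axes from 0) in each library of nt-shRNA (grey), shRNA1 (blue) and shRNA2 (red), with the mean and SD. The *Shmt2* to *Shmt1* ratio is near 2.06 in the controls and near 1.16 with shRNA2.

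Other genes around these enzymes were read from lists that were written with earlier results of these data known. Of the genes of glycine cleavage and of serine, glycine or threonine breakdown, 7 of 9 were tested. With shRNA2 2 of them rose and 3 fell, and with shRNA1 1 rose and 2 fell, with median log2 fold changes of 0.16 and 0.04. For this and the lists that follow, the shares of all genes that rose and fell were 27.2% and 28.7% with shRNA2 and 13.8% and 17.1% with shRNA1. *Amt*, the aminomethyltransferase that works with GLDC, was at 151.1 and 153.9 CPM in the controls and fell by 0.28 with shRNA1 (adjusted p = 0.0014) and by 0.44 with shRNA2 (adjusted p = 3.91e-06). *Gcsh*, the lipoyl carrier protein of the same complex, rose by 0.40 with shRNA2 (adjusted p = 4.4e-05) and stood at 0.17 with shRNA1 (adjusted p = 0.0574). *Srr*, serine racemase, rose by 0.77 and 1.24 on the log2 scale (adjusted p = 0.00215 and 4.67e-06) from a low mean of 2.971 CPM. With shRNA1, *Gcsh* passed without shRNA1 replicate 3 (adjusted p = 0.00778) or shRNA2 replicate 2 (adjusted p = 0.0419), and the number of list genes that rose was then 3 and 2. With scaling by totals alone, 4 rose with shRNA2 and 3 with shRNA1.

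Of 16 genes of the folate cycle and folate transport, 15 were tested. With shRNA2 4 rose and 4 fell, with shRNA1 none rose and 2 fell, and the median log2 fold changes were -0.08 and -0.09. The 4 of 15 in each direction with shRNA2 are near the shares of all genes. *Aldh1l1*, which oxidises 10-formyltetrahydrofolate in the cytosol, was at 95.74 and 96.44 CPM with nt-shRNA, at 54.76, 58.54 and 66.45 CPM with shRNA1 and at 33.81, 29.22 and 40.62 CPM with shRNA2. It fell by 0.68 and by 1.48 on the log2 scale (adjusted p = 3.74e-05 and 8.8e-10), a lower value than that of any of the 10 enzymes in each comparison. *Fpgs*, which adds glutamates to folate, fell by 0.21 and by 0.26 (adjusted p = 0.0261 and 0.00346), and *Ggh*, which removes them, rose by 0.43 with shRNA2 (adjusted p = 0.00571) and stood at 0.19 with shRNA1 (adjusted p = 0.267). With shRNA2, 1 list gene rose and 2 fell without nt-shRNA replicate 1, where *Ggh* lost its call (adjusted p = 0.0526), 2 rose and 1 fell without nt-shRNA replicate 2, where *Fpgs* did (adjusted p = 0.0792), and 2 fell without shRNA2 replicate 1. The shRNA1 call of *Fpgs* was lost without nt-shRNA replicate 2 or shRNA1 replicate 1 or 2 (adjusted p = 0.273, 0.112 and 0.0886), each of which left 1 list gene lower. With shRNA2, 2 list genes fell by DESeq2's Wald test, and with shRNA1, 1 rose and 1 fell with scaling by totals alone.

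Of 13 genes of the methionine cycle and transsulfuration, 12 were tested, of which 2 rose and 6 fell with shRNA2 and 2 rose and 5 fell with shRNA1, with medians of -0.21 and -0.17. *Mat2a*, which makes S-adenosylmethionine, rose by 0.43 and 1.01 on the log2 scale (adjusted p = 0.0013 and 3.53e-08), from 187.9 and 191.1 CPM in the controls to between 337.5 and 421.2 CPM with shRNA2. *Cth*, the last enzyme of cysteine synthesis, fell by 0.40 and by 0.63 (adjusted p = 0.000284 and 4.94e-07). *Gnmt*, glycine N-methyltransferase, fell by 0.52 with shRNA1 and fell by 1.67 with shRNA2 (adjusted p = 0.0396 and 1.85e-06) from a low mean of 4.238 CPM. Its shRNA1 call was lost without either nt-shRNA library, shRNA1 replicate 1 or 2, or shRNA2 replicate 1 (adjusted p from 0.0539 to 0.186). With shRNA1, 3 list genes fell without either nt-shRNA library or shRNA1 replicate 2 and 4 rose without shRNA2 replicate 2 (4 rose and 3 fell with scaling by totals alone), and with shRNA2, 1 rose without nt-shRNA replicate 1 or shRNA2 replicate 1 or 3.

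All 14 genes of purine and thymidylate synthesis were tested, and 9 of them did not pass with shRNA2 and 11 with shRNA1. With shRNA2 3 rose and 2 fell, with shRNA1 1 rose and 2 fell, and the medians were 0.03 with shRNA2 and -0.03 with shRNA1. *Tyms*, thymidylate synthase, rose by 1.2 with shRNA2 (adjusted p = 9.23e-08) and stood at 0.30 with shRNA1 (adjusted p = 0.0672). *Adssl1*, an adenylosuccinate synthase best known from muscle, fell by 0.70 and by 1.95 (adjusted p = 0.000287 and 8.61e-10), and *Paics*, a purine synthesis enzyme, fell by 0.23 and by 0.34 (adjusted p = 0.00763 and 0.000108). With shRNA1 the call of *Paics* was lost without nt-shRNA replicate 2 (adjusted p = 0.0733), which left 1 list gene lower, and *Tyms* passed without shRNA1 replicate 3, shRNA2 replicate 2 or shRNA2 replicate 3 (adjusted p = 0.0187, 0.021 and 0.0369), where 2 list genes rose. With shRNA2, 1 list gene rose without nt-shRNA replicate 1 and 5 without shRNA1 replicate 3. With scaling by totals alone, 6 rose with shRNA2, and 5 rose and 1 fell with shRNA1.

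The ATF4 pathway list holds none of the 10 enzymes. All of its 21 genes were tested. With shRNA2 1 rose, 15 fell and 5 did not pass, and with shRNA1 14 fell and 7 did not pass. The medians were -0.65 with shRNA2 and -0.44 with shRNA1. *Pycr1*, a proline synthesis enzyme, fell by 0.92 and by 1.74 on the log2 scale (adjusted p = 2.02e-06 and 2.17e-10). *Nupr1*, a stress-induced chromatin protein, fell by 1.01 and by 1.64 (adjusted p = 1.97e-06 and 1.12e-09), and *Pck2*, the mitochondrial phosphoenolpyruvate carboxykinase, by 0.84 and by 1.45 (adjusted p = 1.98e-05 and 6.21e-09). *Sesn2*, which is also a known p53 target, rose by 0.59 with shRNA2 (adjusted p = 0.000206) and stood at -0.10 with shRNA1 (adjusted p = 0.544). The number of list genes that rose with shRNA2 was 2 without nt-shRNA replicate 1 and 3 without shRNA2 replicate 3 or with scaling by totals alone. It was also 3 with the replicate block, and 2 with no filter or with at least 10 counts in every library. The summed level of the list was 3147 to 3652 CPM with nt-shRNA, 2312 to 2698 CPM with shRNA1 and 2356 to 2642 CPM with shRNA2. *Asns*, named after its values were seen, had the highest nt-shRNA mean of the list (750.8 CPM). It fell by 0.20 with shRNA1 (adjusted p = 0.0391) and did not pass with shRNA2 (0.13, adjusted p = 0.114). It was higher with shRNA2 than with shRNA1 (0.33, adjusted p = 0.000544).

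**Figure D5:**
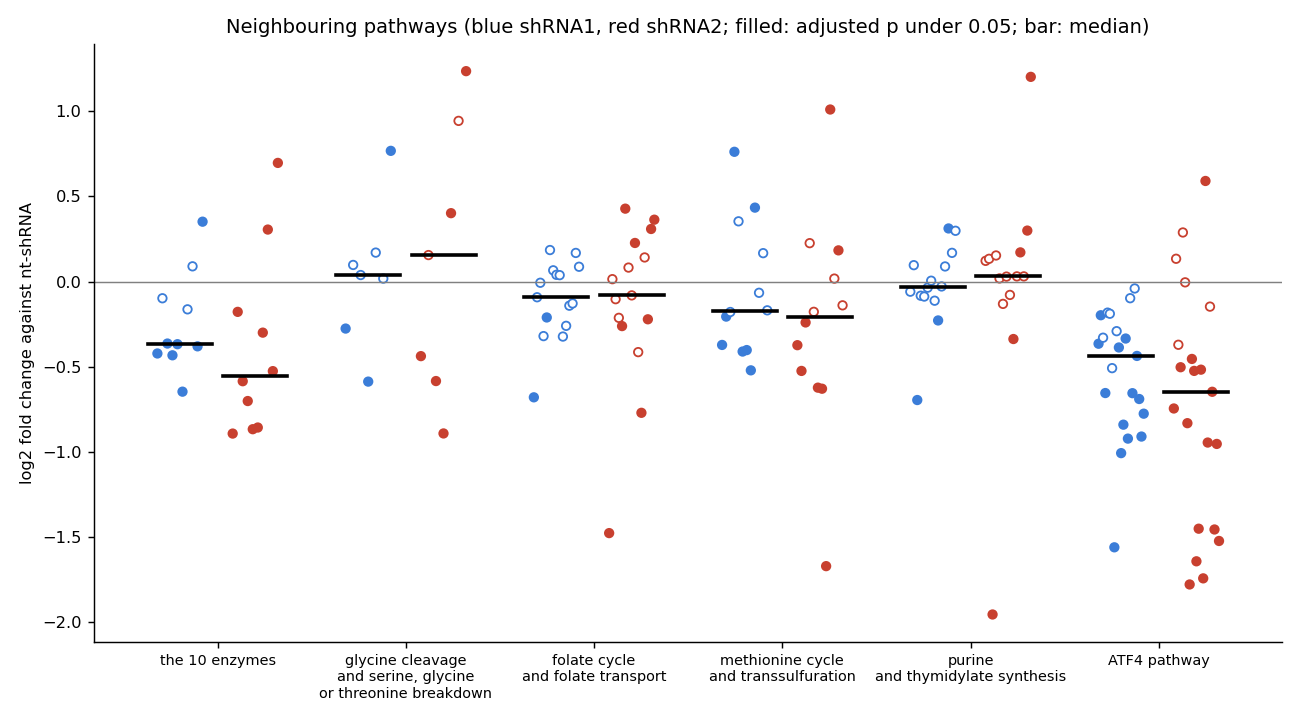
Log2 fold change against nt-shRNA (vertical axis) of each tested gene of the 10 enzymes and of 5 neighbouring lists, with shRNA1 in blue and shRNA2 in red, filled where the adjusted p was under 0.05, and a bar at each median. The medians of the 10 enzymes (-0.37 and -0.56) and of the ATF4 pathway (-0.44 and -0.65) lie lowest, and those of the folate and the purine and thymidylate lists lie near 0.

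The transcript of *Atf4* itself was at 354.6 and 307.9 CPM with nt-shRNA, at 208.7, 192.5 and 229.9 CPM with shRNA1 and at 228.9, 262.3 and 210.2 CPM with shRNA2. It fell by 0.65 with shRNA1 (adjusted p = 1.61e-05) and by 0.50 with shRNA2 (adjusted p = 6.66e-05), and the KD groups overlapped (difference 0.15, adjusted p = 0.142). With single libraries left out that difference ranged from 0.06 to 0.22, and it passed only without shRNA2 replicate 3 (0.22, adjusted p = 0.031). ATF4 protein is controlled at translation, and no protein was measured in these libraries. In the controls *Atf4*, *Phgdh*, *Psat1* and *Mthfd2* were all higher in nt-shRNA replicate 1 than in replicate 2, by 15.2%, 17.1%, 15.9% and 29.8%, whereas *Shmt2* was lower there, at 197.9 against 209.5 CPM.

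Of the other transcription factors known to act on these genes, *Trp53*, which encodes p53, rose by 0.62 with shRNA2 (adjusted p = 2.58e-06) and stood at 0.11 with shRNA1 (adjusted p = 0.328), where it passed at 0.22 with scaling by totals alone (adjusted p = 0.041). *Mycn* and *Nfe2l2* rose by 0.19 and 0.16 with shRNA2 (adjusted p = 0.0144 and 0.0295), and neither call held without nt-shRNA replicate 1, where the values were 0.13 and 0.18 (adjusted p = 0.197 and 0.088). *Nfe2l2* also lost its call without nt-shRNA replicate 2 (adjusted p = 0.196) or shRNA2 replicate 3 (adjusted p = 0.0522). *Myc* was at 0.30 and 0.70 CPM with nt-shRNA, at 0.54, 0.89 and 0.43 CPM with shRNA1 and at 2.976, 6.268 and 1.56 CPM with shRNA2. It rose by 2.83 with shRNA2 (adjusted p = 6.99e-05), and by 2.16 without shRNA2 replicate 2 and 3.56 without nt-shRNA replicate 2. Their part in the levels of the 10 enzymes was not tested.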

How the data were processed

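The authors mapped paired reads of 100 bases with STAR and counted the fragments in exons, without strand, using featureCounts 1.6.2. The deposited values are raw counts for 55385 genes of GENCODE M24 (GRCm38) and exon lengths. Fragments with several alignments, or that could not be assigned to a single gene, were left out. Ensembl identifiers gave names from GENCODE M21 to 55144 genes.

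Counts of the 8 libraries went through edgeR 4.0.16 (R 4.3.3), with filterByExpr (17445 genes, minimum count 10), TMM factors (0.9353 to 1.036) and glmQLFit and glmQLFTest on group coefficients without a block. SEs come from the F statistic. The code was tested on simulated data. No library repeated another of its own group (chi-square per gene 3.119 or more). Near-identical copies were sought with BLAST 2.17.0 (at least 100 bases at 98% identity). Motifs were chosen with the sequences seen.

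The members and lists were chosen with earlier results of these data known. Beside the 10 members and *Eftud2*, genes were named by rule. These are, of each pathway list, the 3 with the smallest adjusted p with shRNA2 and the one furthest against its list's median. All 5 transcription factors are named too. *Gcat* is also set beside *Tdh*, and genes that overlap or copy a member are named for that. *Pou5f1*, *Sox2* and *Nanog* are named only as examples of the embryonic stem cell markers. *Mthfd2l*, *Aldh1l2*, *Dnmt3b*, *Otx2* and *Asns* were named after their values were seen. The 15 alternatives covered scaling, filters, DESeq2 1.42.0, the groups fitted, a replicate block and leaving out each library.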

Additional observations from a re-analysis of the deposited data

How the results depend on the processing

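The member counts and medians, the counts of the pathway lists and the fold changes of the members and of the genes named by rule were computed under 15 alternatives, except that *Myc* did not pass the filter of 10 counts in every library. No called value changed sign. Values near 0 that had not passed did so without passing: with scaling by totals alone, *Mthfd1* and *Sesn2* with shRNA1 (both 0.02), without shRNA1 replicate 2 and without nt-shRNA replicate 1, *Myc* with shRNA1 (-0.07 and -0.21), without shRNA1 replicate 3, *Fpgs* between the hairpins (0.01), and *Mycn* with shRNA1 (-0.04 without nt-shRNA replicate 1, and just under 0, rounded to 0, with the replicate block and without shRNA1 replicate 3). With single libraries left out, these ranged from -0.21 to 0.99 for *Myc*, -0.04 to 0.06 for *Mycn* and -0.10 to 0.01 for *Fpgs*. The enzymes that rose and fell with shRNA2 stayed at 2 and at 6 to 8, and those that fell with shRNA1 were 4 to 7. With scaling by library totals alone, 2 enzymes rose with shRNA1, the medians were -0.25 with shRNA1 and -0.47 with shRNA2, and the share of higher genes among all calls was 70.5% with shRNA1 and 58.9% with shRNA2, against 44.7% and 48.7% with TMM. When each library was left out in turn, the median ranged from -0.41 to -0.24 with shRNA1 and, between the hairpins, from -0.21 to -0.12, and the enzymes lower with shRNA2 than with shRNA1 numbered 2 to 6. *Psph* passed with shRNA1 without shRNA1 replicate 3 (-0.24, adjusted p = 0.0411). *Shmt2* passed between the hairpins without shRNA1 replicate 2 (-0.20, adjusted p = 0.0374), with no filter (-0.16, adjusted p = 0.04) and with scaling by totals (-0.17, adjusted p = 0.0448). With single libraries left out, this *Shmt2* value ranged from -0.20 to -0.06. The cause was not tested. Deviations of libraries with the same replicate number correlated at -0.026 to 0.074, so the numbers were not taken as pairs. With the replicate block, 1 enzyme rose and 7 fell with shRNA1, 2 rose and 8 fell with shRNA2, and the medians were -0.39 and -0.58. Between the hairpins the block gave 2 higher, 5 lower and a median of -0.17. *Psph* passed with shRNA1 under the block (-0.22, adjusted p = 0.0466). Among the other genes named with a call in shRNA1, *Fpgs*, *Gnmt* and *Paics* lost it under at least 1 alternative, with adjusted p up to 0.304, 0.186 and 0.153. *Eftud2*, *Gcsh* and *Tyms* gained one with shRNA1 under several, at adjusted p down to 0.0206, 0.003 and 0.00194, and *Trp53* gained one with scaling by totals alone (0.22, adjusted p = 0.041). With the replicate block, the ATF4 pathway genes that rose with shRNA2 were 3, and with shRNA1 those of the glycine list and of the purine and thymidylate list were 2 each. With shRNA2, *Ggh* lost its call without nt-shRNA replicate 1 (adjusted p = 0.0526) and *Fpgs* without nt-shRNA replicate 2 (adjusted p = 0.0792). Having only 2 control libraries limits the values with nt-shRNA. The ratios, the marker lists and the genes named outside the rule were not run under them.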
